A study of Mus musculus with 8 samples.

Results

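The 6 genes described here, Chat, Slc18a3, Slc5a7, Isl1, Prph and Ache, are cholinergic and motor neuron genes chosen by name from a table of 54532 mouse genes. All 6 were found, and all 6 passed the filter of a mean of at least 1 FPKM (a level scaled for gene length and for library size) over the 8 libraries. RNA was taken from midbrain tissue labelled substantia nigra, where dopamine neurons lie, in male mice of the C57BL/6 strain, with 2 libraries in each of 4 groups. The control group is titled wild type. The vector group was given AAV-α-synuclein, a viral vector (AAV, adeno-associated virus) for α-synuclein, which forms the protein aggregates of Parkinson's disease. The AKG group was given α-ketoglutarate (AKG), an intermediate of the citric acid cycle, as a dietary intake according to the title of the series, and the combined group was given both. The labels give no age, dose, time, promoter of the vector or empty vector for the control and AKG groups. They also do not say whether the libraries of a group are separate mice, so p-values measure only the spread between these samples, which may be technical.

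Cholinergic neurons make acetylcholine with choline acetyltransferase (Chat), load it into vesicles with the vesicular acetylcholine transporter (Slc18a3) and take choline back up with the choline transporter Slc5a7. Acetylcholinesterase (Ache) ends the signal, and it is also made by neurons that release other transmitters. Isl1 is a LIM homeodomain transcription factor of motor neurons that is also used by other neurons, among them some of the striatum and hypothalamus, and Prph encodes peripherin, an intermediate filament of peripheral and motor neurons. The substantia nigra itself receives cholinergic fibres, while cell bodies of cholinergic neurons lie in other nuclei such as the medial habenula, the pedunculopontine nucleus, the cranial motor nuclei and the basal forebrain.

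The motor neuron name was not borne out by the marker genes. Mnx1, a transcription factor of spinal motor neurons, was listed at 0 in all 8 libraries, where 0 reads allow up to 0.0787 FPKM (3 reads in the shallowest library, counting error only). Of 8 cranial motor neuron genes 1 passed the filter, the neuropeptide gene Calca, at 2.13 to 3.29 FPKM. Isl2, a relative of Isl1 in motor neurons, reached 2.17 FPKM in control library 1 and no more than 0.124 FPKM in any of the other 7. Lhx4, another LIM homeodomain gene of the list, was at 0.965 FPKM in that library and at 0.0284 FPKM or less in the others. The list summed to 3.67 to 5.72 FPKM in the control libraries, 2.26 to 2.55 in the vector libraries, 2.43 to 3.58 in the AKG libraries and 2.66 to 3.35 in the combined libraries. The 6 genes are therefore called by their own names below.

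Each library held 16544190 to 19125423 reads on genes. Control library 1 stood apart from the other 7, with a mean Spearman correlation with them of 0.926 against 0.971 to 0.975. Ttr, a choroid plexus gene, stood at 8778 FPKM there against 435 FPKM in control library 2, and it ran from 44.0 to 4857 FPKM in the treated groups, where library 2 was the higher in each. Comparisons of the 6 genes with control are also given without control library 1 where their sign changed or their size moved by over 1.5 times. In whole tissue, fewer cells of a type and less RNA per cell cannot be told apart.

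Per unit of length, Ache was the most abundant of the 6 genes at 41.5 to 53.5 FPKM over the libraries, followed by Prph at 5.02 to 11.4, Isl1 at 2.22 to 5.03, Slc18a3 at 1.64 to 4.11, Slc5a7 at 0.990 to 3.60 and Chat at 0.681 to 2.27. The last 3 rest on 59 to 191 reads per library for Chat, 74 to 168 for Slc18a3 and 103 to 344 for Slc5a7.

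**Figure D1:**
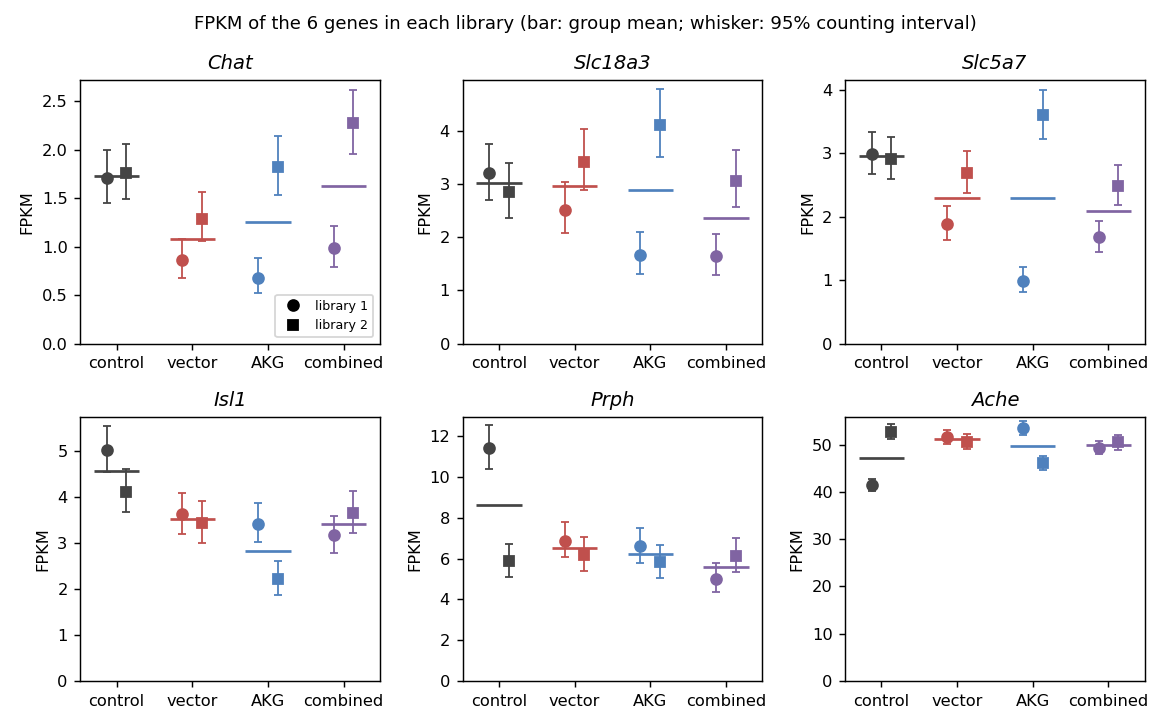
FPKM (vertical axis, from 0) of the 6 genes in the 2 libraries of each group (circle, library 1; square, library 2), with the group mean as a bar and a 95% exact Poisson interval that covers counting error only. In the AKG group Chat was at 0.681 in one library and 1.82 in the other, while Ache stayed between 41.5 and 53.5 in all 8.

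Chat and Slc18a3 share a locus. Chat (ENSMUSG00000021919) lies on the minus strand of chromosome 14 at 32408203 to 32465989 (GRCm38), and Slc18a3 (ENSMUSG00000100241) at 32462438 to 32464850 on the same strand, inside intron 1 of the 16-exon Chat transcript and outside the Chat transcripts that start further downstream. The first base of Slc18a3 is 1139 bases downstream of that of Chat. The exons of Chat in GENCODE M21 share 0 bases with Slc18a3, and the deposited lengths (4703 and 2413 bases) equal the summed exons of each gene. Reads counted on exons of one are therefore not shared with annotated exons of the other, although unspliced Chat RNA runs through Slc18a3. Slc5a7 (ENSMUSG00000023945) lies on chromosome 17 at 54273590 to 54299034.

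**Figure D2:**
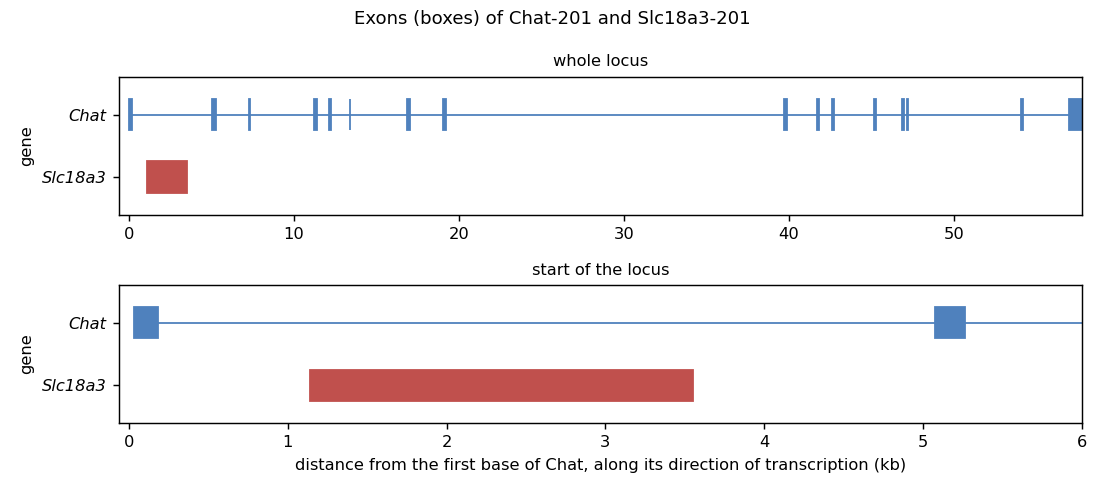
Exons (boxes) and introns (lines) of the 16-exon Chat transcript and of Slc18a3 against the distance in kb from the first base of Chat, with the whole locus above and its start below. The single exon of Slc18a3 begins 1139 bases into Chat, between exons 1 and 2 of that transcript.

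The upstream sequences of these 3 genes are shown because their levels had positive correlations across libraries, as given below. Each is the 250 bases before the RefSeq start (GRCm38.p6, minus strand), written 5′ to 3′, and that of Chat stops after 170 bases, where the deposited gene begins. Capitals mark 6 short motifs on either strand: the TATA box TATAAA, the CCAAT box, the GC box GGGCGG, the half-site TGACG of the cAMP response element, the E-box CACGTG and the homeodomain core TAATTA.
Chat, chr14:32465990-32466159: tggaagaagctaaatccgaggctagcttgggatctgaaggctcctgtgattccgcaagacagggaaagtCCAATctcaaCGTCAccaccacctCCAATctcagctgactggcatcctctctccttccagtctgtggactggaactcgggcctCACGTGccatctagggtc
Slc18a3, chr14:32464851-32465100: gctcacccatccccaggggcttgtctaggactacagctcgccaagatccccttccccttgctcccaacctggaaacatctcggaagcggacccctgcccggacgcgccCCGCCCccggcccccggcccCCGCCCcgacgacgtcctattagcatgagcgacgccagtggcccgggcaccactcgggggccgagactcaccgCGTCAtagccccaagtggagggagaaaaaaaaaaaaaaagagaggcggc
Slc5a7, chr17:54299035-54299284: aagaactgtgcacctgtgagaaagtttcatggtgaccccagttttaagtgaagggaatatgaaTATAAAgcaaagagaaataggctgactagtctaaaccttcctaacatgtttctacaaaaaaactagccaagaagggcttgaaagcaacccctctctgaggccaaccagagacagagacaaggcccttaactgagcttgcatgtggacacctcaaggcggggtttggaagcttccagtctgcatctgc

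Chat and Slc18a3 held TGACG, which is in 17.8% of 32851 RefSeq windows of this length. Slc5a7 held TATAAA, in 12.4% of windows, and neither Chat nor Slc18a3 did. Chat also held CCAAT (33.8% of windows) and CACGTG (6.02%), Slc18a3 held GGGCGG (32.7%), and TAATTA (4.84%) was in none of the 6 windows. In the windows not shown, Isl1 held TGACG and CCAAT, Prph held TATAAA and GGGCGG, and Ache held GGGCGG and CACGTG. GC content was 54.8% in Chat, 66.0% in Slc18a3 and 45.6% in Slc5a7 over the full windows, against a median of 52.4%. These letters describe the windows and say nothing of which factors bind them.

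Chat was at 1.71 and 1.76 FPKM in the control libraries, 0.864 and 1.29 in the vector libraries, 0.681 and 1.82 in the AKG libraries and 0.985 and 2.27 in the combined libraries. Both vector libraries were below both controls, while the AKG and combined groups each held 1 library below and 1 above them. The group means were 1.73 ± 0.0367 (SD, n = 2) in control, 1.08 ± 0.301 in vector, 1.25 ± 0.805 in AKG and 1.63 ± 0.909 in combined. Their range on the log2(FPKM + 1) scale, 0.40, is close to the SD between libraries of a group, 0.38, so the order of the groups is not resolved.

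Slc18a3 was at 3.20 and 2.84 FPKM in control, 2.51 and 3.42 in vector, 1.66 and 4.11 in AKG and 1.64 and 3.06 in combined. Both its lowest values, in AKG library 1 and combined library 1, and its highest, in AKG library 2, lay in mice given AKG, and all groups overlapped. Slc5a7 was at 2.99 and 2.91 FPKM in control, 1.88 and 2.69 in vector, 0.990 and 3.60 in AKG and 1.68 and 2.49 in combined. Both vector and both combined libraries were below both controls, and the AKG libraries lay on either side of all the others. For both genes the range of the group means (0.29 and 0.38 on the log2 scale) was below the SD between libraries of a group (0.42 and 0.47).

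The 2 AKG libraries differed from each other more than any pair of group means did, by 2.67-fold in Chat, 2.47-fold in Slc18a3 and 3.63-fold in Slc5a7, higher in library 2 each time. Their exact Poisson intervals do not overlap, at 0.518 to 0.878 against 1.54 to 2.14 FPKM for Chat and 1.31 to 2.09 against 3.51 to 4.78 for Slc18a3. Library 2 was also the higher in all 3 genes in the combined group, by 2.31-fold, 1.86-fold and 1.48-fold, and in the vector group, by 1.49-fold, 1.36-fold and 1.43-fold. In the control group the libraries were within 1.03-fold, 1.13-fold and 1.03-fold of each other.

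Across the 8 libraries the 3 genes had positive correlations with one another. All 15 pairs of the 6 genes were tested on the log2(FPKM + 1) scale with exact two-sided permutation tests and Benjamini-Hochberg adjustment. The permutations moved libraries freely across the groups. Slc18a3 and Slc5a7 had a Pearson r of 0.92 (exact permutation p = 0.000794, adjusted 0.0119) and a Spearman rho of 0.86 (exact permutation p = 0.0107, adjusted 0.161). Without AKG library 1 and combined library 1, the libraries farthest from the median, r was 0.85. Chat and Slc5a7 had an r of 0.83 (exact permutation p = 0.00930, adjusted 0.0698) and a rho of 0.71 (exact permutation p = 0.0576, adjusted 0.432). Chat and Slc18a3 had an r of 0.75 (exact permutation p = 0.0365, adjusted 0.182) and a rho of 0.64 (exact permutation p = 0.0962, adjusted 0.453). Without vector library 1 and AKG library 1, r was 0.62 and 0.63 for these pairs. Only the first pair passed the adjustment, and only by Pearson's r. The other 12 pairs had adjusted p-values of 0.322 to 0.932 by r. Some of these pairs depended on control library 1. Without it, r moved from -0.19 to 0.88 for Isl1 and Ache and from -0.68 to 0.49 for Prph and Ache, without a test. For deviations from the group means, r was 0.96 for Slc18a3 and Slc5a7, 0.90 for Chat and Slc5a7 and 0.98 for Chat and Slc18a3, without a test.

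Among 12036 other protein-coding genes past the filter, Slc5a7 had the pattern most like that of Slc18a3, followed by Trim11, Prkcq, Tpbgl and Fibcd1 (r of 0.91, 0.91, 0.90 and 0.89 over 8 libraries). The genes most like Slc5a7 were Nipal2, Polb, Fibcd1, Siah1a and Slc18a3 (r of 0.96, 0.95, 0.95, 0.92 and 0.92). Among those most like Chat were Mrps30, Timm8a1, Abt1 and Rab3ip (r of 0.96, 0.96, 0.93 and 0.92), and Slc5a7 came at rank 62 and Slc18a3 at rank 315. For the mean of the 3 standardised genes they were Abt1, Trim11, Nipal2, Dand5 and Pum3 (r of 0.95 to 0.92).

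Markers of the medial habenula, a cholinergic nucleus outside the labelled region, moved with these 3 genes. Tac2, a neuropeptide gene, was at 59.0 and 39.3 FPKM in control, 24.1 and 27.5 in vector, 18.4 and 42.7 in AKG and 22.6 and 34.2 in combined. Chrna3, a nicotinic receptor subunit of habenular neurons, was at 2.28 FPKM in AKG library 1 and 7.60 in AKG library 2. The transcription factor Pou4f1 was at 2.51 and 7.57 FPKM in the same libraries. All 6 habenula genes (Tac2, Gng8, Pou4f1, Nwd2, Chrna3 and Chrnb4) passed the filter and were detected in every library. Their sum was 64.5 to 98.3 FPKM in control, 42.2 to 50.9 in vector, 31.0 to 83.0 in AKG and 43.2 to 51.4 in combined. Their mean standardised level had an r of 0.79 with that of Chat, Slc18a3 and Slc5a7 over the 8 libraries (0.61 for Chat alone, 0.76 for Slc18a3 and 0.88 for Slc5a7). Other lists moved with the 3 genes too. Nicotinic receptor subunit genes, a list that shares Chrna3 and Chrnb4 with the habenula list, had an r of 0.69 and a rho of 0.40 with the mean of the 3 genes. Dopamine neuron genes had an r of 0.49 and a rho of 0.33 with it. Choroid plexus genes had an r of 0.57 with the mean of the 3 genes, against 0.79 for the habenula list, and the same rho of 0.71. They summed to 517 to 9409 FPKM in control, 90.8 to 2177 in vector, 1513 to 2753 in AKG and 95.1 to 5244 in combined. Glial genes had an r of 0.56 and a rho of 0.69 with the mean, and with Chat alone an r of 0.77, above the 0.61 of the habenula list. They summed to 1108 to 1471 FPKM in control, 961 to 1096 in vector, 917 to 1110 in AKG and 1011 to 1535 in combined. The part of these lists in the pattern was not tested, nor was the difference between them.

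Combined library 2, with the highest Chat of all libraries, was mixed in the habenula genes. Its Tac2 was at 34.2 FPKM against 22.6 in combined library 1, while the other 5 genes summed to 17.2 against 20.6. In combined library 2 Pou4f1 was at 2.54 FPKM and Chrna3 at 2.89. Some genes of forebrain cholinergic neurons were highest there. Lhx8, a transcription factor of these neurons, reached 1.13 FPKM in combined library 2 against 0.102 to 0.279 FPKM in the other 7, and the receptor gene Ngfr was at 5.10 FPKM against 1.42 to 3.46. Adora2a, a marker of striatal projection neurons, was at 4.44 FPKM against 0.642 to 1.45. Of 7 forebrain cholinergic genes 4 passed the filter and all 7 were detected in every library. Their sum, mostly Zic1, was 42.1 to 46.4 FPKM in control, 47.0 to 49.8 in vector, 53.7 to 58.2 in AKG and 48.3 to 53.5 in combined, and the mean standardised level of the 4 had an r of 0.18 with that of Chat, Slc18a3 and Slc5a7 over the 8 libraries (0.45 for Chat alone). Of 8 pedunculopontine and neighbouring brainstem genes 1 passed the filter, Nos1, at 2.08 to 6.27 FPKM. The list summed to 3.65 to 4.68 FPKM in control, 5.27 to 6.72 in vector, 4.08 to 5.72 in AKG and 4.59 to 5.92 in combined. Its neuropeptide gene Uts2 was listed at 0 in 5 libraries and at 0.101 to 0.866 FPKM in the others. Whether these sources contribute to the Chat level was not tested.

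**Figure D3:**
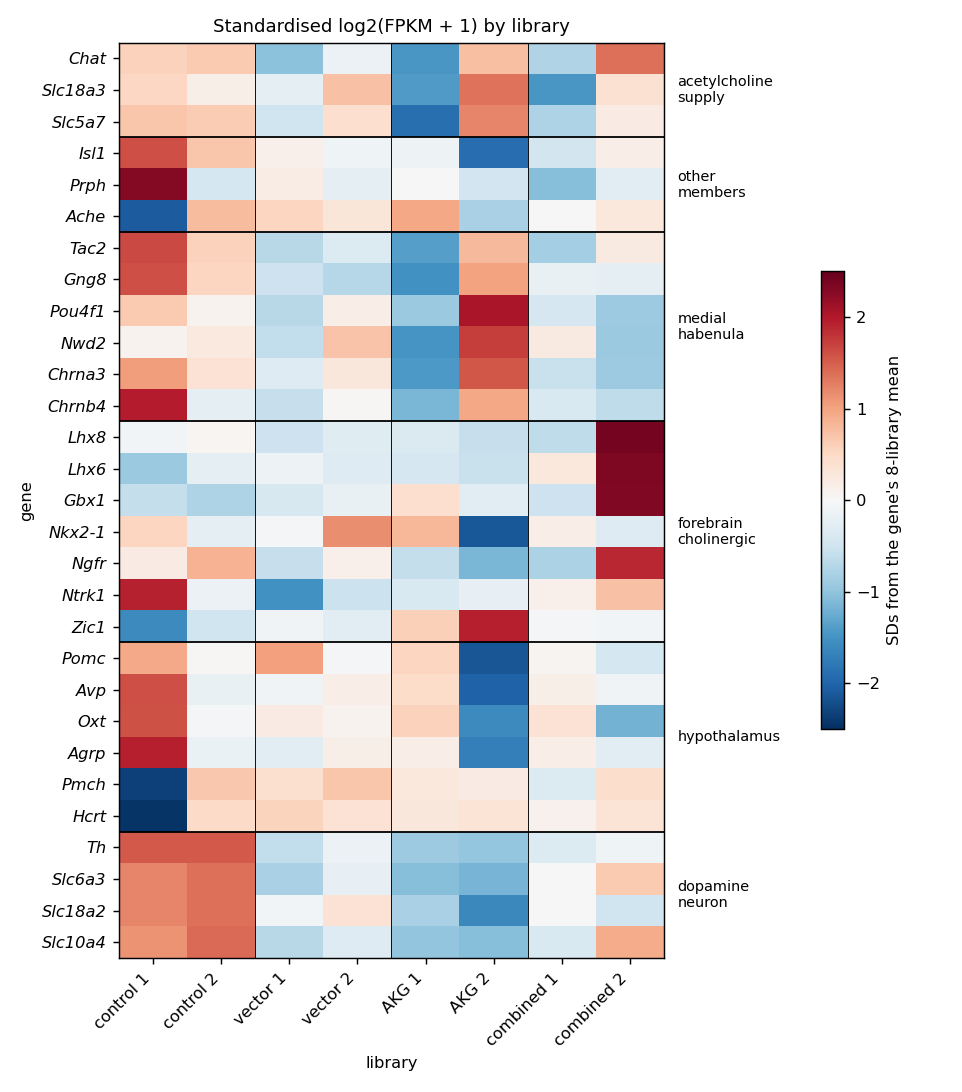
Standardised log2(FPKM + 1) of each gene (rows, grouped by marker list) in the 8 libraries (columns), in SDs from the gene's mean over the libraries. Chat, Slc18a3, Slc5a7 and the habenula genes are low in AKG library 1 and high in AKG library 2, Lhx8 is high in combined library 2, and Th and Slc6a3 are high in both controls.

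Isl1 (ENSMUSG00000042258, chromosome 13, 116298281 to 116309689) had another pattern. It was at 5.03 and 4.12 FPKM in control, 3.63 and 3.44 in vector, 3.43 and 2.22 in AKG and 3.17 and 3.66 in combined. All 6 libraries of treated mice were below both controls, as they were in 12.2% of the genes tested. The group means were 4.58 ± 0.645, 3.53 ± 0.134, 2.82 ± 0.852 and 3.42 ± 0.344 FPKM (SD, n = 2 each), a range of 0.56 on the log2 scale against an SD between libraries of 0.19. The order from low to high was AKG, combined, vector and control. The AKG, combined and vector groups overlapped in neighbouring pairs.

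Some hypothalamic neuropeptide genes were lowest in the library with the lowest Isl1. In AKG library 2, Pomc was at 2.06 FPKM, Agrp at 0.524 and Npy at 12.3, against 10.2 to 33.3, 5.74 to 66.6 and 44.0 to 288 FPKM in the other libraries. Control library 1, with the highest Isl1, had the highest Agrp and Npy. Hcrt and Pmch, peptide genes of the lateral hypothalamus, ran the other way, at 2.14 and 22.3 FPKM in control library 1 against 116 to 224 and 97.6 to 208 FPKM in the other libraries. The 8 pituitary and hypothalamus genes summed to 887 to 2673 FPKM in control, 977 to 986 in vector, 408 to 1189 in AKG and 681 to 897 in combined. Npy ranked 28 and Agrp 70 of 12036 genes in likeness to Isl1 (r of 0.90 and 0.87 over 8 libraries). They came behind AI467606, Smpdl3b, Fcf1, Chid1 and Tmx2 (r of 0.98 to 0.94). Control library 1 and AKG library 2 held the extremes of both peptide genes. In the remaining libraries Npy lay between 44.0 and 53.1 FPKM and Agrp between 5.74 and 9.75. The r without those extremes was not computed. By list, pituitary and hypothalamus genes had an r of 0.84 and a rho of 0.48 with Isl1, dopamine neuron genes an r of 0.58 and a rho of 0.76, and striatal projection neuron genes an r of 0.67 and a rho of 0.69. Th and Slc6a3, dopamine neuron genes that were also below both controls in all 6 treated libraries, had an r of 0.80 and 0.76 with Isl1. The dopamine list summed to 162 to 173 FPKM in control, 85.2 to 86.4 in vector, 73.0 to 83.3 in AKG and 91.1 to 106 in combined. The striatal list summed to 99.2 to 152 FPKM in control, 97.0 to 103 in vector, 84.0 to 96.6 in AKG and 91.7 to 155 in combined. The part of these lists in the Isl1 levels was not tested.

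Prph (ENSMUSG00000023484, chromosome 15, 99055174 to 99058978) was at 11.4 and 5.88 FPKM in control, 6.88 and 6.19 in vector, 6.60 and 5.82 in AKG and 5.02 and 6.13 in combined. Control library 1 was the one high value, and the other 7 lay between 5.02 and 6.88. The group means were 8.65 ± 3.92 FPKM in control and 5.57 ± 0.782 to 6.54 ± 0.491 in the other groups. Isl2 at 2.17 FPKM and Vim, another intermediate filament gene, at 38.3 FPKM against 14.1 to 16.3 elsewhere were also high in control library 1. Its neurofilament partner Nefl was lowest there, at 65.2 FPKM against 88.7 to 112 in the others. The genes most like Prph were Alox5ap, Creld2, Drc3, Cfap300 and Zc2hc1c (r of 0.98 over 8 libraries). Without control library 1 they were Tars, Alox5ap, Ap3b1, Zfp414 and Phf7 (r of 0.97 to 0.92 over 7 libraries).

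Ache (ENSMUSG00000023328, chromosome 5, 137287519 to 137294466) varied least. It was at 41.5 and 52.7 FPKM in control, 51.6 and 50.6 in vector, 53.5 and 46.1 in AKG and 49.4 and 50.5 in combined, with control library 1 the lowest. The group means ran from 47.1 ± 7.96 FPKM in control to 51.1 ± 0.737 in vector, a range of 0.13 on the log2 scale against an SD between libraries of 0.14. Ache did not follow Chat (r = -0.42, exact permutation p = 0.315, adjusted 0.591, rho = -0.48, exact permutation p = 0.243, adjusted 0.521). The genes most like Ache were Wipi2, Ube2j1, Ppp2r5c, Lrrc4b and Mtmr7 (r of 0.98 to 0.96). Without control library 1 they were Nkx2-4, Aldh3b2, Tmem179, Ppp1r3f and Ube2j1 (r of 0.97 to 0.95 over 7 libraries). Prima1, which anchors the enzyme in the membrane, was at 2.93 to 6.92 FPKM, and Bche, the related butyrylcholinesterase, was below the filter at 0.431 to 0.926 FPKM.

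The groups were compared with limma on log2(FPKM + 1) over 13716 genes, with Benjamini-Hochberg adjustment and a threshold of 0.05. In the vector group against control, 0 of 6 genes were called, against 0.0% of all genes tested. At an unadjusted p under 0.05, limma had 0 of the 6 and 16.8% of all genes. Chat, Slc5a7 and Isl1 had both vector libraries below both controls, 3 of 6 where 27.6% of all genes did, and 0 of 6 had both above, where 26.3% of all genes did. Chat had the largest difference, -0.40 ± 0.31 (standard error, limma adjusted p = 0.460, 95% interval -1.14 to 0.33). Slc18a3 from the same locus was at -0.03 ± 0.33 (limma adjusted p = 0.968). Without control library 1, Slc18a3 was at 0.04 and Isl1 moved from -0.30 to -0.18. The median of the 6 genes was -0.29, against -0.01 over all genes tested, and without control library 1 it was -0.11 against -0.02.

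AKG against control, in mice whose label names no vector, gave 0 of 6 genes called, against 0.00729% of all genes, which is the dopamine synthesis gene Th alone, and the count was 0 when any 1 library other than control library 2 was left out. Isl1 came closest, with a log2 difference of -0.56 ± 0.17 (limma unadjusted p = 0.0146, adjusted p = 0.269, lower in 2 of 2 libraries), where 17.7% of all genes had an unadjusted p under 0.05 and 26.4% were lower in both libraries. None of the 6 genes was higher in both AKG libraries than in both controls, where 26.0% of all genes were. The difference of Isl1 was -0.44 without control library 1 and -0.33 without AKG library 2. Slc5a7 differed by -0.38 ± 0.37, Prph by -0.36 ± 0.26, Chat by -0.33 ± 0.31, Slc18a3 by -0.12 ± 0.33 and Ache by 0.09 ± 0.14, with limma adjusted p-values of 0.449 to 0.848. Without AKG library 1, Slc5a7 was above control by 0.22 and Slc18a3 by 0.35, and without control library 1 Slc18a3 differed by -0.06. The median was -0.34, against -0.01 over all genes, and without control library 1 it was -0.21 against -0.01.

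**Figure D4:**
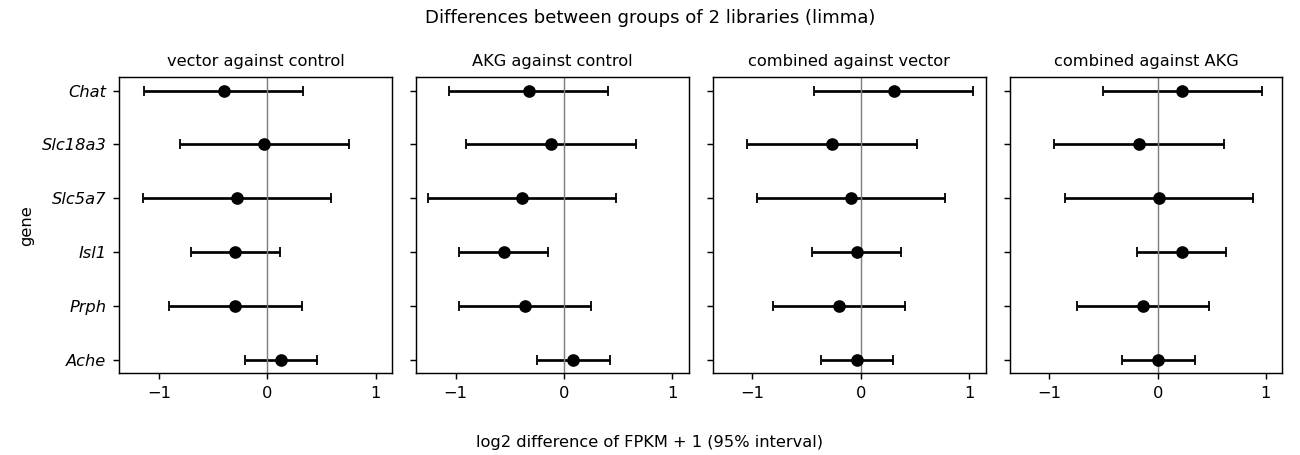
Log2 difference of FPKM + 1 (horizontal axis) with its 95% interval from limma for the 6 genes (vertical axis) in the 4 comparisons of 2 against 2 libraries. Isl1 in the AKG group against control, at -0.56, has the only unadjusted interval of the 24 that does not reach 0.

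Prph against control depended on which control library was used. It differed by -0.30 ± 0.26 in the vector group and -0.36 ± 0.26 in the AKG group (limma adjusted p = 0.509 and 0.449). Without control library 2, leaving library 1 as the lone control, it was called in both at -0.72 and -0.79 (limma adjusted p = 0.0211 and 0.0158), as were 24.6% and 24.7% of all genes. Without control library 1 it was at 0.13 and 0.07. Ache also changed sign without control library 1, to -0.04 in the vector group and -0.08 in the AKG group.

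The combined group was compared with the vector group to ask what AKG changed in mice given the vector, the question of the series title. None of the 6 genes was called, nor was any other (0.0% of genes by limma and by voom, a limma fit to recovered reads). At an unadjusted p under 0.05 limma had 0 of the 6 and 1.36% of all genes. Chat differed by 0.30 ± 0.31 (95% interval -0.43 to 1.04), Slc18a3 by -0.27 ± 0.33 (-1.05 to 0.52), Slc5a7 by -0.09 ± 0.37 (-0.96 to 0.77) and Isl1 by -0.04 ± 0.17 (-0.45 to 0.37), with a limma adjusted p of 0.999961 for each. Prph and Ache were lower in both libraries, 2 of 6 where 11.4% of all genes were, with differences of -0.20 ± 0.26 and -0.03 ± 0.14, and 0 of 6 were higher, where 12.9% were. The median was -0.07, against 0.01 over all genes. For Chat, Slc18a3 and Slc5a7 these intervals are wide on 1 or both sides of 0, so similar levels are not shown.

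In the combined against the AKG group, which shows the vector in mice given AKG, 0 of 6 genes were called by limma (0.0% of all genes, and 1.14% at an unadjusted p under 0.05, none of them among the 6). No gene of the 6 was separated in both libraries, against 11.3% of all genes higher and 11.8% lower. Differences ran from -0.17 ± 0.33 for Slc18a3 to 0.23 ± 0.31 for Chat, and the median was 0.01 against -0.00111 over all genes. The interaction, which asks whether AKG acted differently with the vector, was 0.63 ± 0.44 for Chat and 0.52 ± 0.24 for Isl1 (limma adjusted p = 0.572 and 0.537). For the other 4 genes it ran from -0.15 ± 0.47 for Slc18a3 to 0.29 ± 0.52 for Slc5a7, and 0 of 13716 genes were called (0.0%, and 7.28% at an unadjusted p under 0.05). The comparisons share libraries, so their values are not independent of one another.

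The receptors for acetylcholine were followed as the other side of the pathway. Of 16 nicotinic receptor subunit genes 7 passed the filter, and 0 were called in any of the 5 comparisons. The most abundant, Chrnb2 and Chrna4, form the main high-affinity receptor of the brain. Chrnb2 was at 10.2 and 15.0 FPKM in control and 15.4 to 17.8 in the 6 other libraries, and Chrna4 at 4.72 and 14.4 in control and 13.1 to 16.8 in the others, with control library 1 lowest in both. Chrna6, a subunit of dopamine neurons, was at 3.60 and 4.85 FPKM in control and 0.766 to 2.21 in the 6 others, with log2 differences of -1.10 ± 0.25 in the vector and -1.28 ± 0.25 in the AKG group (limma adjusted p = 0.294 and 0.269). The list median was -0.34 in the vector and -0.30 in the AKG group, against -0.01 over all genes, and without control library 1 it was -0.01 and 0.10.

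All 5 muscarinic receptor genes passed the filter and 0 were called. Chrm2 and Chrm3 were the most abundant, at 2.58 to 5.75 and 2.62 to 6.28 FPKM, with control library 1 lowest in each. The list median was 0.26 in the vector and 0.20 in the AKG group against control, and without control library 1 it was 0.10 and -0.10. Of 7 accessory proteins of nicotinic receptors 6 passed, led by the toxin-like modulator Lynx1 at 48.1 FPKM in control library 1 and 82.9 to 107 in the others, and the chaperone Tmem35a at 45.6 to 55.0. Of 11 genes of choline supply and esterase partners 6 passed, led by Acly, which makes acetyl-CoA, at 49.9 to 55.4 FPKM and the choline transporter-like Slc44a1 at 12.2 to 17.0. None of these genes was called in any comparison. Of the 19 gene lists examined, 18 held no called gene, and the dopamine neuron list held Th.

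Slc10a4, a vesicular protein that cholinergic and dopamine neurons both make, was lower in all 6 treated libraries than in both controls. It was at 5.51 and 6.66 FPKM in control, 1.41 and 1.96 in vector, 1.06 and 0.981 in AKG and 1.86 and 4.86 in combined. The dopamine transporter gene Slc6a3 was at 24.1 and 28.5 FPKM in control and at 0.615 to 11.9 in the 6 others. In AKG library 2, where Slc18a3 and Slc5a7 were at their highest, Slc10a4 and Slc6a3 were at their lowest. Not all genes of the dopamine list had such a pattern, as Ret was at 4.62 and 12.6 FPKM in control and 7.86 to 9.21 in the 6 others. Over the 8 libraries Slc10a4 had an r of 0.65 with Chat, 0.42 with Slc5a7 and 0.23 with Slc18a3.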

How the data were processed

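The authors deposited 1 table of FPKM values, with gene lengths and GRCm38 coordinates per the file headers; the builds GRCm38 and mm10 are named in the submitters' processing notes. Per the labels' protocols, total RNA was made into SMARTer mRNA-seq libraries. The sources used here do not give the aligner, the counter or the strand option. FPKM times length gave whole reads for 100% of values (within 0.01 of a read), which were used for read numbers, exact Poisson intervals (95%) and voom. Median-of-ratios factors of the deposited FPKM were 1.01 in every library. Of the genes also in GENCODE M21, 98.3% had the same coordinates.

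The 13716 genes that averaged 1 FPKM or more were fitted with limma 3.58.1 in R 4.3.3 on log2(FPKM + 1), with 1 mean per group over all 8 libraries, a mean-variance trend, 4 residual degrees of freedom, two-sided tests and Benjamini-Hochberg adjustment. Exact tests of 2 against 2 libraries cannot go below 0.333 and were not used. A test on simulated data was run on 13716 genes for the comparison of vector with control. It recovered 60.2% of genes with a log2 change of 1 and 91.5% of genes with a log2 change of 2. The false calls averaged 6.2 and 9.2. The simulated noise was independent between genes, with 1 spread per gene for all groups. In the real libraries control library 1 stood apart over the whole table, so these rates may not hold for them. These rates are not rates for the 6 genes, whose own recovery was not tested. In that comparison the standard errors were 0.31 for Chat, 0.33 for Slc18a3 and 0.37 for Slc5a7. Python 3.11.15, pandas 2.3.3, numpy 2.4.6, scipy 1.17.1 and matplotlib 3.10.9 were used. Promoter windows are from RefSeq, matched by symbol for 6 of 6 genes. The 6 genes, lists, tests and alternatives were chosen with earlier results of these data known. The text names the 6 genes, the 2 most abundant genes of each cholinergic list, the 5 genes most like each member (protein-coding, passing over Gm, Rik and pseudogenes) and a fixed set with Th, Slc6a3, Slc10a4, Bche, Lhx8 and Ttr. Other genes named, such as Chrna3, Chrna6, Pou4f1, Mnx1, Isl2, Lhx4, Vim, Ret, Hcrt, Pmch, Prima1, Uts2, Ngfr, Adora2a, Pomc, Agrp and Npy, were chosen after their values were seen. Some genes that the rule names are not reported here.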

Additional observations from a re-analysis of the deposited data

How the results depend on the processing

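No member was called under the 8 alternatives that kept all libraries, where the smallest limma adjusted p of a member was 0.242 (voom), and 480 member values were recomputed in all, of which 34 changed sign and 2 became called (Prph without control library 2). The cause of these changes was not tested. With all libraries kept, the sign changed 4 times in 240 values. Many of these values could not move. A changed filter or the replicate block leaves a difference between groups as it is. Median-of-ratios scaling divided every library by the same 1.01. Leaving out a library also leaves comparisons without its group as they were, so these counts do not measure stability. With the trend in gene length removed, Slc18a3 was at 0.14 in the vector and 0.022 in the AKG group against control, and the interaction of Prph was -0.065. With quantile normalization, Ache in the combined against the AKG group was at -0.00836.

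Leaving out 1 library at a time moved values across 0 as follows. In the vector group against control they ran from -0.19 to 0.14 for Slc18a3, -0.72 to 0.13 for Prph and -0.044 to 0.30 for Ache. In the AKG group against control they ran from -0.70 to 0.046 for Chat, -0.59 to 0.35 for Slc18a3, -0.99 to 0.22 for Slc5a7, -0.79 to 0.065 for Prph and -0.084 to 0.26 for Ache. In the combined against the vector group they ran from -0.058 to 0.66 for Chat, -0.58 to 0.043 for Slc18a3, -0.28 to 0.10 for Slc5a7 and -0.12 to 0.040 for Isl1. In the combined against the AKG group they ran from -0.15 to 0.60 for Chat, -0.64 to 0.30 for Slc18a3, -0.59 to 0.62 for Slc5a7, -0.0061 to 0.45 for Isl1 and -0.10 to 0.11 for Ache. For the interaction they ran from -0.61 to 0.32 for Slc18a3, -0.31 to 0.89 for Slc5a7, -0.27 to 0.59 for Prph and -0.29 to 0.051 for Ache. Isl1 stayed below control in the vector (-0.41 to -0.18) and AKG groups (-0.79 to -0.33). The lone library of a group was assumed to vary like the others.

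Called genes over the whole table ranged from 0 to 3380 for the vector group against control, 0 to 3392 for AKG against control and 0 to 1377 for the interaction when 1 library was left out, and members called from 0 to 1 in the first 2. The highest counts came without control library 2. Without a filter the counts were 5 for the vector group against control, 12 for AKG against control, 6 for combined against vector and 14 for combined against AKG. AKG against control gave 1 call as reported, 2 with a pseudocount of 0.1, and 0 with a minimum of 0.2 FPKM or with the length trend removed.

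With the replicate number as a block, AKG against control gave 0 calls. The differences between libraries 1 and 2 correlated from -0.32 (control and combined) to 0.34 (AKG and combined) over 13716 genes. These correlations do not settle whether the numbers pair the libraries, as control library 1 stood apart from the others. Leaving out control library 1 from the search for alike genes, added after seeing the data, put Hspb6 first for Slc18a3 (r = 0.94 over 7 libraries) and St3gal6 first for Slc5a7 (r = 0.99). Depth limits Chat and Slc18a3, at 59 to 191 and 74 to 168 reads per library.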
